A study of Mus musculus with 16 samples.

Results

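Brush border hydrolases are the membrane enzymes with which the enterocyte finishes digestion at its apical surface. The 9 genes described here, of 54532 in the count table, were chosen by name and not by any value: the disaccharidases Sis, Mgam, Lct and Treh, the peptidases Anpep, Enpep, Dpp4 and Mep1b, and the alkaline phosphatase Alpi. All 9 passed the filter on low counts in every comparison. Transcripts of these genes were measured in 16 cultures of mouse jejunal enteroids, which are epithelial organoids grown from crypts, after a switch to differentiation medium, with 4 cultures from 4 mice in each of 4 groups. MYO5B is the motor protein myosin Vb, which carries recycling vesicles, and thereby brush border proteins, to the apical membrane, and its loss causes microvillus inclusion disease. The questions were how transcripts of the enzymes differed in 2 models of MYO5B loss, and whether Compound-1 changed them.

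The vehicle-treated MYO5BΔIEC and the Compound-1-treated MYO5BΔIEC cultures both carried Vil1-CreERT2 with Myo5b flox/flox, so that a Cre driven by the villin promoter could delete Myo5b in epithelial cells. MYO5B(G519R) cultures carried Vil1-CreERT2 with Myo5b flox/G519R, in which only the point-mutant allele is left after recombination. All 12 of these cultures received 1 µM 4-OH-tamoxifen 24 h before the medium was switched. Compound-1 at 100 nM, or its vehicle PBS, was then given for 2 days to the MYO5BΔIEC cultures. The labels name no treatment for the control cultures. The study gives controls in one place as healthy littermates and in another as Vil1-CreERT2 with Myo5b flox/flox that received ethanol in place of tamoxifen, so exposure to tamoxifen and loss of MYO5B cannot be told apart in comparisons with control. Crypts came from adult mice and were passaged before induction.

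Total counts ranged from 27804968 to 40101729 per culture. Myo5b itself was at 159.7–229.6 CPM (counts scaled to library size by TMM) in control, 100.7–169 CPM in MYO5BΔIEC, 136–173 CPM in MYO5B(G519R) and 87.2–149 CPM with Compound-1, counted over the whole gene, so the deleted part was not read separately. The jejunal label was checked against region markers: the 6 jejunal enterocyte genes summed to 1624–9156 CPM in control and the 4 ileal ones to 25.1–56.0 CPM. Of the ileal genes Fabp6 was at most 0.556 CPM in any culture and Slc51a at 17.4–52.9 CPM, while the bile acid transporter Slc10a2 was at 1.43–2.57 CPM in control and rose to 4.29–10.6 CPM in MYO5BΔIEC and to at most 7.70 CPM in MYO5B(G519R) (edgeR adjusted p = 0.00382 and 0.0392). Control culture 1 stood apart. Its log2 CPM values correlated with those of the other 3 controls at 0.953–0.956, against 0.982–0.985 among those 3. Results against control are therefore also given without it. Its log2 CPM did not fall with gene length (Spearman rho 0.11), nor in the other groups (-0.04 to 0.19), but fell in those 3 controls (-0.33 to -0.31). Its mitochondrially encoded share of counts was 6.41%, against 9.07–10.4% in those 3 and 3.79–6.63% in the other groups. Without it, these traits and loss of MYO5B cannot be told apart. Defining markers of cells outside the epithelium were low, but not all were alike between groups. The fibroblast genes Col3a1, Dcn and Lum, 3 of the 7 in that list, were at 0 in all 16 cultures, and the summed fibroblast list was at 14.9–37.9 CPM in control, 8.51–43.0 CPM in MYO5BΔIEC, 12.2–18.1 CPM in MYO5B(G519R) and 8.82–43.1 CPM with Compound-1. Almost all of that sum was Vim, at 14.8–37.5, 8.12–42.6, 11.9–17.2 and 8.67–43.1 CPM in that order. For 8 immune genes the sums, given in that order, were 6.19–17.7, 6.33–23.4, 3.53–10.2 and 1.72–9.18 CPM, and the macrophage marker Adgre1 was at 0 throughout. Among the immune genes H2-Aa was at 4.74–15.9, 4.47–20.4, 1.36–8.29 and 0.147–7.44 CPM. The 5 endothelial and pericyte genes summed to 0.778–2.38, 1.62–7.998, 1.19–5.41 and 1.78–6.68 CPM, and among them the pericyte gene Rgs5 was at 0–0.0940 CPM in control, 0.539–6.34 CPM in MYO5BΔIEC and 0.562–4.24 CPM in MYO5B(G519R), higher in both by edgeR (adjusted p = 0.00182 and 0.00565). Col1a1, at 0–0.160 CPM in control and 0.178–0.462 CPM in MYO5B(G519R), was also higher there (edgeR adjusted p = 0.0476). Anpep, Enpep and Dpp4 are also known from stromal and immune cells, and the part of such cells in their values was not tested.

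Sucrase-isomaltase (Sis) splits sucrose and the branch points of starch fragments, maltase-glucoamylase (Mgam) trims starch oligomers to glucose, lactase (Lct) splits milk sugar and trehalase (Treh) splits trehalose. Aminopeptidase N (Anpep), aminopeptidase A (Enpep) and dipeptidyl peptidase 4 (Dpp4) remove residues from the N-terminal end of peptides, meprin beta (Mep1b) cuts within them, and intestinal alkaline phosphatase (Alpi) removes phosphate groups from luminal substrates including lipopolysaccharide. In the small intestine these genes are switched on as enterocytes leave the crypt, under transcription factors of the HNF4, CDX and GATA families, among others.

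The promoters of Sis, Mgam, Enpep and Alpi are printed here because their estimated changes against control differed in sign. In both models these were negative for Sis and Enpep and positive for Mgam and Alpi, but not all passed the test. Each run is the 250 bases before the transcription start in RefSeq on GRCm38.p6, 5′ to 3′ on the strand of the gene, and 8 of the 9 genes had an entry in the table used. The windows are chr3:72967864-72968113 on the minus strand for Sis, chr6:40628581-40628830 on the plus strand for Mgam, chr3:129332750-129332999 on the minus strand for Enpep and chr1:87101607-87101856 on the minus strand for Alpi. Capitals mark every match, on either strand, to the homeodomain letters GTTAAT, the CDX site TTTAT, the GATA sites AGATAA and TGATAA, the HNF4 site CAAAGTCC and the TATA box TATAAA, which overlaps the CDX letters on the other strand.
Sis: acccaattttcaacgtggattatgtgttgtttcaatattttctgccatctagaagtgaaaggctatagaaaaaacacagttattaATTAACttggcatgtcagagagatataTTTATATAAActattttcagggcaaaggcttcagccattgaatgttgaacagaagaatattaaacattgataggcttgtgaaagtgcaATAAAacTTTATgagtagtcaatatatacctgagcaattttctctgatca
Mgam: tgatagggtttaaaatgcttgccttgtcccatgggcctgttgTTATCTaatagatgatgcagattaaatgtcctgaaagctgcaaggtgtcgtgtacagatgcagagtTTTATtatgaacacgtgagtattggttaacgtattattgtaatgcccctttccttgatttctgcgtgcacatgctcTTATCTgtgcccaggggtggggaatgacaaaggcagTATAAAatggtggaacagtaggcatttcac
Enpep: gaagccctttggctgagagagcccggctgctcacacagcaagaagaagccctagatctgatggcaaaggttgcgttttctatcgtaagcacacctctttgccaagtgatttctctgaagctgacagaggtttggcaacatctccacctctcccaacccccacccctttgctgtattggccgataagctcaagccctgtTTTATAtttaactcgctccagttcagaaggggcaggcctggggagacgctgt
Alpi: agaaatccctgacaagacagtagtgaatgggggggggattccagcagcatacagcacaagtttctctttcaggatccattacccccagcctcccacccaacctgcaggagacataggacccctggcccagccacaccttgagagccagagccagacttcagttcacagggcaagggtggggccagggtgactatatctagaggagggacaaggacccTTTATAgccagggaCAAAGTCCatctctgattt

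The letters GTTAAT lay 165 bases before the Sis start, in 1 of the 8 windows, and 6.43% of the 32851 promoter windows of this length hold them. GATA letters in the AGATAA form lay 208 and 66 bases before the Mgam start, and also in the Lct and Dpp4 windows, so that 3 of 8 held them against 9.99% of all windows. HNF4 letters lay 19 bases before the Alpi start and in the Treh window, 2 of 8 against 1.2% of all windows. Between the 8 windows, TTTAT was found in 6 against 37.3% of all, TATAAA in 5 against 12.4%, and TGATAA in 0 against 7.94%. Base composition differed too, from 31.6% G and C in the Sis window to 42.4% for Mgam, 52.4% for Enpep and 54.4% for Alpi. These matches describe the letters only. The Anpep window, with 72.8% G and C, held none of the letters, and it lies inside the annotated gene, 12849 bases from its 5′ end, so it is not printed.

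In control cultures the 9 transcripts spanned a wide range per length. Mean levels in CPM per kilobase of gene length were 452 for Sis, 136 for Alpi, 91.0 for Mep1b, 80.6 for Mgam, 43.1 for Enpep, 30.1 for Dpp4, 23.4 for Treh and 4.73 for Lct, with Anpep between Enpep and Dpp4. Sis was above Alpi in 4 of 4 control cultures, while Enpep was above Anpep in 2 of 4, so those 2 aminopeptidase transcripts were not ordered beyond their spread. In vehicle-treated MYO5BΔIEC the level of Alpi, 318 CPM per kilobase, was close to the 336 of Sis, which was the higher in 1 of 4 cultures. The order of the top pair then changed: Alpi had the higher mean in MYO5B(G519R), 286 against 210.1, and with Compound-1, 399 against 162, and stood above Sis in 3 of 4 and 4 of 4 cultures. Anpep moved from below Enpep in mean to 119 against 25.6 CPM per kilobase in MYO5BΔIEC. Lct had the lowest mean in all 4 groups.

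**Figure D1:**
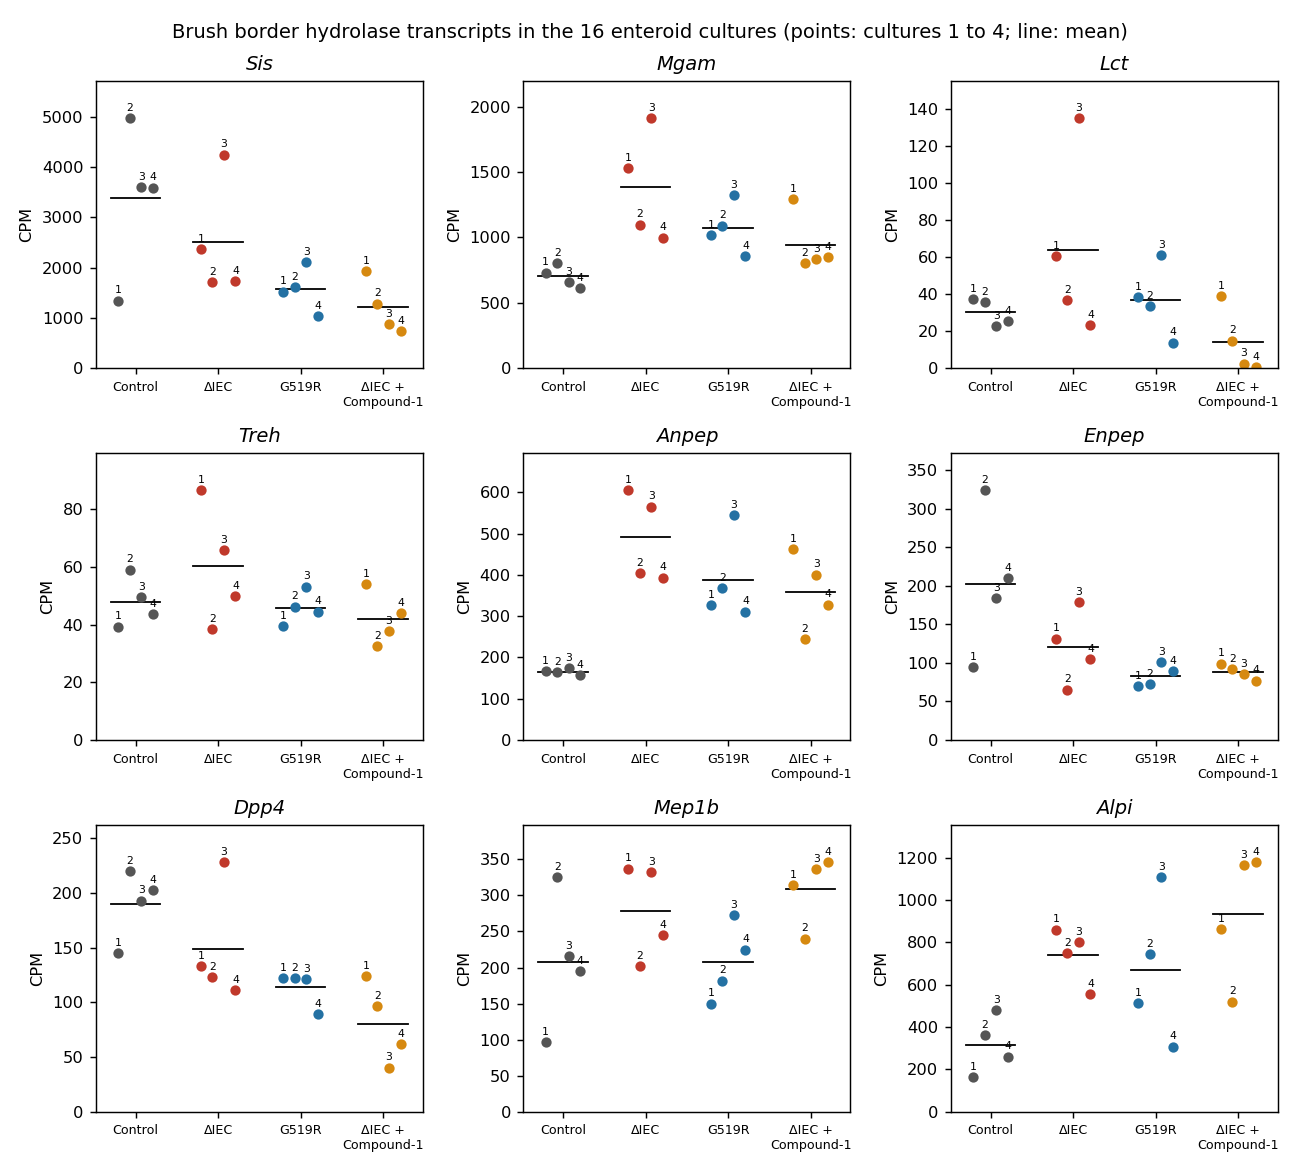
Level of each hydrolase transcript in CPM (linear axis from 0) in the 16 cultures, with 1 numbered point per culture and a line at the mean of 4. Anpep lies between 156 and 174 CPM in control and at 244 CPM or more in each of the other 12 cultures, whereas the MYO5B(G519R) and Compound-1 values of Dpp4 all lie below the lowest control, at 145 CPM.

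Against control, Mgam, Anpep and Alpi rose in vehicle-treated MYO5BΔIEC, to 1.98, 2.99 and 2.35 times the control level, and none of the 9 fell. That was 3 of 9 higher and 0 lower, where 13.5% of all 17951 genes tested were higher and 13.8% lower (edgeR quasi-likelihood test, adjusted p below 0.05), and the median log2 fold change was 0.43 for the 9 genes and -0.01 for all genes. In MYO5B(G519R), Mgam and Anpep rose while Sis, Dpp4 and Enpep fell, 2 higher and 3 lower of 9, beside 13.1% higher and 13.7% lower of 17829 genes. The median log2 fold change there was -0.0049 for the 9 genes, against -0.05 for all genes. In bulk RNA, fewer enterocytes and less RNA per enterocyte cannot be told apart, and this holds for every value given here. The edgeR p-values set the difference between groups against the spread between cultures.

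Sis, the most abundant hydrolase transcript in control, was at 1341, 4962, 3605 and 3589 CPM in the 4 control cultures and at 1522, 1607, 2115 and 1029 CPM in MYO5B(G519R). Control culture 1 was the low one, inside the MYO5B(G519R) range, and the other 3 controls were above every MYO5B(G519R) culture. It fell to 0.465 times control, a log2 fold change of -1.10 with an SE of 0.36 (edgeR adjusted p = 0.0464). Values after ± beside a log2 fold change are SEs from here on. The call was lost when any culture other than control culture 1 was left out, with edgeR adjusted p from 0.0568 to 0.126, and without control culture 1 it was -1.34 with adjusted p = 0.000728. In vehicle-treated MYO5BΔIEC, Sis was at 2365, 1705, 4245 and 1726 CPM, which overlaps the controls, and the log2 fold change of -0.42 ± 0.40 did not pass (edgeR adjusted p = 0.466).

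Mgam is the relative of Sis in structure and in substrate, and its values were higher in both models. It was at 731, 806, 659 and 612 CPM in control, at 1528, 1098, 1909 and 997 CPM in MYO5BΔIEC and at 1018, 1090, 1323 and 854 CPM in MYO5B(G519R). Neither model overlapped the controls. Genes with no overlap were 13% higher and 13.8% lower of all genes in MYO5BΔIEC, and 13.6% and 13.8% in MYO5B(G519R). Of the 9 hydrolases, Mgam, Anpep and Alpi were higher without overlap in MYO5BΔIEC, and Mgam and Anpep higher and Dpp4 lower in MYO5B(G519R). The log2 fold changes were 0.98 ± 0.22 in MYO5BΔIEC (edgeR adjusted p = 0.00907) and 0.61 ± 0.17 in MYO5B(G519R) (edgeR adjusted p = 0.0231). In MYO5B(G519R) the call was lost without control culture 3 or 4 or without MYO5B(G519R) culture 1, 2 or 3 (edgeR adjusted p 0.0510 to 0.0724), and with the gene length trend removed (log2 fold change 0.42, adjusted p = 0.0556). In these libraries log2 CPM, relative to the mean of all libraries, fell with gene length in control cultures 2 to 4 (rho -0.33 to -0.31) and not in the other 13 libraries (rho -0.04 to 0.19), and Mgam is counted over 8704 bases. The pseudogene Mgam2-ps, a neighbour with similar sequence, was at 20.2–65.0 CPM in control, so reads may be shared in part.

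Lct and Treh passed in neither model. Lct was at 37.2, 35.9, 22.6 and 25.5 CPM in control, at 60.8, 36.8, 135 and 23.4 CPM in MYO5BΔIEC and at 38.2, 33.8, 61.2 and 13.8 CPM in MYO5B(G519R). The MYO5BΔIEC group was thus spread from below the control mean to far above it, with culture 3 highest. Its log2 fold change was 1.08 ± 0.45 (edgeR adjusted p = 0.095) and came to 0.41 without that culture, but 1.36 with adjusted p = 0.0296 without MYO5BΔIEC culture 4. It also passed without the filter on low counts (adjusted p = 0.0482) and by DESeq2 (adjusted p = 0.0372). Treh was at 39.3–59.1 CPM in control, 38.3–86.6 CPM in MYO5BΔIEC and 39.6–53.2 CPM in MYO5B(G519R). Its log2 fold changes, 0.33 ± 0.24 and -0.06 ± 0.15, did not pass. Its gene overlaps Phldb1 on the opposite strand, which was at 10.8–26.7 CPM over all groups, and the library kit did not mark strand.

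Among the peptidases, Anpep showed the largest change of the 9 genes in vehicle-treated MYO5BΔIEC. Its control values were 167, 165, 174 and 156 CPM, the narrowest spread of any of the 9 genes in control, and it was at 605, 404, 565 and 393 CPM in MYO5BΔIEC and at 326, 369, 545 and 311 CPM in MYO5B(G519R). Every culture of both models was above every control. The log2 fold change was 1.58 ± 0.18 in MYO5BΔIEC (edgeR adjusted p = 0.0014) and 1.23 ± 0.18 in MYO5B(G519R) (edgeR adjusted p = 0.00247), and it passed under every alternative run in both.

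Enpep, the other aminopeptidase, had lower means than control in both models. It was at 94.4, 324, 184 and 210 CPM in control, at 132, 65.3, 179 and 105 CPM in MYO5BΔIEC and at 70.3, 72.5, 101 and 89.7 CPM in MYO5B(G519R). Control culture 1 lay inside the MYO5B(G519R) range and the other 3 controls above it. The log2 fold change was -1.28 ± 0.31 in MYO5B(G519R) (edgeR adjusted p = 0.0145), and -1.49 without control culture 1 (adjusted p = 0.000196). In MYO5BΔIEC it was -0.75 ± 0.37 (edgeR adjusted p = 0.149), and without control culture 1 it was -0.99 and passed (adjusted p = 0.0189).

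Dpp4 was at 145, 220, 193 and 202 CPM in control and at 122, 122, 122 and 89.0 CPM in MYO5B(G519R), with no overlap. It fell to 0.598 times control there (log2 fold change -0.74 ± 0.16, edgeR adjusted p = 0.00882), but with all 4 groups in 1 fit the same change missed the threshold (adjusted p = 0.0608). In MYO5BΔIEC it was at 133, 123, 228 and 112 CPM, with culture 3 above every control and the other 3 below every control. The log2 fold change was -0.35 ± 0.23 (edgeR adjusted p = 0.292), and without MYO5BΔIEC culture 3 it was -0.63 with adjusted p = 0.0285.

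Mep1b, whose product also trims mucin from the epithelial surface, ranged from 96.6 to 325 CPM in control, from 201 to 337 CPM in MYO5BΔIEC and from 150 to 272 CPM in MYO5B(G519R). The groups overlapped, and the log2 fold changes were 0.43 ± 0.32 and -0.0049 ± 0.32. Neither passed, and the 95% confidence interval of the second ran from -0.72 to 0.71.

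Alpi was at 164, 363, 479 and 260 CPM in control and at 861, 750.2, 800.5 and 556 CPM in MYO5BΔIEC, with no overlap. It rose there by a log2 fold change of 1.23 ± 0.30 (edgeR adjusted p = 0.0122), and by 1.02 without control culture 1 (adjusted p = 0.0033). In MYO5B(G519R) it was at 514, 745, 1110 and 308 CPM, culture 4 lying inside the control range, and the log2 fold change of 1.08 ± 0.41 did not pass (edgeR adjusted p = 0.076). It passed without that culture, at 1.32 with adjusted p = 0.0353, and in 4 of 7 other alternatives (adjusted p from 0.0178 to 0.0443), so this call depends on the fit. Akp3, a related alkaline phosphatase gene, was at 20.3–168 CPM in control and 68.8–356 CPM in MYO5BΔIEC, so counts of both are uncertain where reads fit either.

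**Figure D2:**
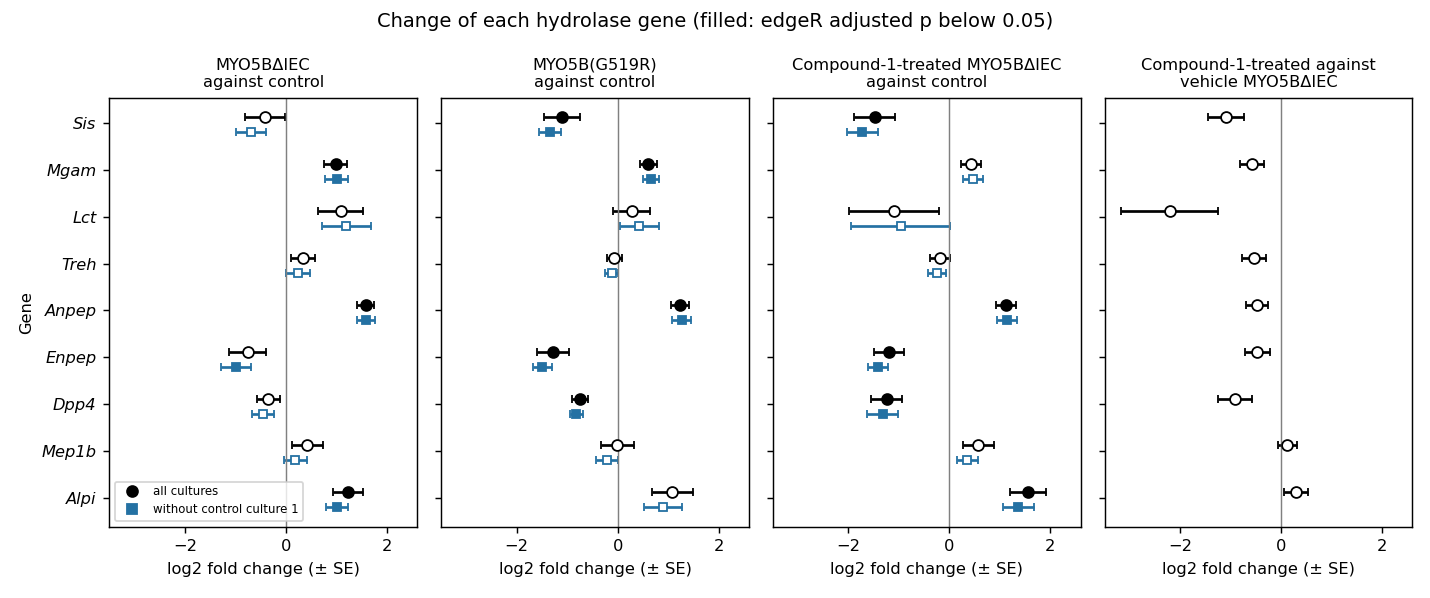
Log2 fold change of each gene (x axis, with SE bars) in 4 comparisons, from all cultures (black circles) and without control culture 1 (blue squares), filled where the edgeR adjusted p was below 0.05. Anpep stands at 1.58, 1.23 and 1.12 against control, and no symbol is filled in the comparison of Compound-1 with vehicle.

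The 2 models were also compared directly. None of the 9 genes passed between MYO5B(G519R) and vehicle-treated MYO5BΔIEC, where 0.00557% of 17943 genes did, and none was without overlap, against 1.85% of genes. All 9 estimates were below 0, with a median log2 fold change of -0.39 against -0.01 over all genes. The unadjusted p was below 0.05 for Sis only, at -0.67 ± 0.30 (edgeR unadjusted p = 0.0451, adjusted p = 0.838), beside 2.34% of genes lower and 1.96% higher at that threshold. That count of 1 was 4 without the filter, without MYO5B(G519R) culture 3 or without MYO5BΔIEC culture 2 or 4, and 0 without any 1 of the other 5 cultures. The calls of Sis, Dpp4 and Enpep in MYO5B(G519R) and not in MYO5BΔIEC are therefore not shown to differ between the models.

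Compound-1 is a small molecule described by the study as an agonist of LPAR5, a receptor for lysophosphatidic acid. By edgeR, 0 of the 9 genes passed between Compound-1 and vehicle in MYO5BΔIEC, as did 0 of 18037 genes (0%), with 1355 genes at an unadjusted p below 0.05. DESeq2 called 91 genes, none of them among the 9. At the unadjusted threshold 6 of the 9 were lower and 0 higher, beside 4.1% and 3.42% of all genes, and the median log2 fold change was -0.55 against 0.00 over all genes. The 6 were Sis, Lct, Mgam, Treh, Anpep and Dpp4. That count rested on single cultures: it was 1 without vehicle culture 3, 2 without vehicle culture 1 or Compound-1 culture 2, and 3 without Compound-1 culture 3 or 4. None of the 9 was without overlap between the groups, against 2.86% of genes. Other markers moved beside them, none past the adjusted threshold: 5 of 6 jejunal enterocyte genes had estimates below 0 (median log2 fold change -0.82, with Fabp2 and Slc2a2 lower without overlap), and 7 of 7 goblet cell genes had estimates above 0 (median 0.71, with Clca1 at 1.69 and Zg16 at 1.45). Their part in the hydrolase values was not tested.

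With Compound-1, Sis was at 1926, 1282, 877 and 737 CPM, overlapping the vehicle cultures only through culture 1. The log2 fold change against vehicle was -1.09 ± 0.35, with a 95% confidence interval of -1.86 to -0.31 (edgeR unadjusted p = 0.0104, adjusted p = 0.56), and it was -0.71 without vehicle culture 3, the highest of its group. Lct was at 38.9, 14.8, 2.45 and 0.456 CPM with Compound-1, from counts of 1162, 474, 100 and 16. Culture 1 lay inside the vehicle range and the other 3 below its lowest value. Its log2 fold change was -2.21 ± 0.96 (95% confidence interval -4.32 to -0.09, edgeR adjusted p = 0.657), -1.54 without vehicle culture 3 and -3.47 without Compound-1 culture 1.

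Dpp4 was at 124, 96.5, 40.3 and 61.8 CPM with Compound-1, and its log2 fold change against vehicle was -0.92 ± 0.33 (edgeR adjusted p = 0.566). Mgam at 1293, 801, 831 and 846 CPM, Treh at 32.4–54.0 CPM and Anpep at 462, 244, 401 and 328 CPM differed from vehicle by -0.58 ± 0.24, -0.55 ± 0.24 and -0.49 ± 0.22 on the log2 scale. All of these groups overlapped vehicle. Enpep, at 99.0, 91.7, 85.4 and 77.0 CPM, differed by -0.47 ± 0.25. Mep1b, at 240–346 CPM, and Alpi, at 864, 521, 1164 and 1180 CPM, had estimates above 0, of 0.12 ± 0.19 and 0.29 ± 0.25, with 95% confidence intervals of -0.30 to 0.53 and -0.24 to 0.83.

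Set against control, which these cultures share with the comparisons above, Compound-1-treated MYO5BΔIEC had Anpep and Alpi higher and Sis, Dpp4 and Enpep lower. That was 2 higher and 3 lower of 9, beside 15.7% higher and 13.7% lower of 17937 genes. Anpep and Alpi were higher and Dpp4 lower without overlap, where 14.3% of genes were higher and 13.6% lower. Anpep was at 2.17 times control (edgeR adjusted p = 0.005), Alpi at 2.94 times (adjusted p = 0.0102), Sis at 0.357 times (adjusted p = 0.0211), Dpp4 at 0.424 times (adjusted p = 0.0143) and Enpep at 0.435 times (adjusted p = 0.0153). Mgam, at a log2 fold change of 0.43 ± 0.20, did not pass (edgeR adjusted p = 0.128). The Sis call was lost without control culture 2, 3 or 4 and without Compound-1 culture 3 or 4 (edgeR adjusted p 0.0518 to 0.0659). Without control culture 1 the same 5 genes passed, with log2 fold changes of 1.14 for Anpep, 1.36 for Alpi, -1.73 for Sis, -1.33 for Dpp4 and -1.42 for Enpep (edgeR adjusted p 0.000702 to 0.00787). The Enpep call was lost without Compound-1 culture 4 (adjusted p = 0.0515), which left 3 genes called.

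The make-up of the set differed from control in all 3 groups, in the same values as above and without a test. Shares of a sum depend on each other, so that a rise of some genes lowers the shares of the rest. The CPM of Sis itself overlapped control in MYO5BΔIEC. Of the summed CPM per kilobase of the 9 genes, Sis made up 48.4% ± 7.99 (SD, n = 4) in control. It made up 28.5% ± 5.69 in MYO5BΔIEC, 24.4% ± 2.08 in MYO5B(G519R) and 17.4% ± 7.56 with Compound-1. Only MYO5BΔIEC culture 3, at 36.9%, came near the lowest control, culture 1 at 37.1%. Alpi made up 15.0% ± 3.79 in control, but 28.6% ± 5.21 in MYO5BΔIEC, 31.4% ± 7.29 in MYO5B(G519R) and 41.7% ± 10.5 with Compound-1, again without overlap with control. Together the 9 genes were 0.282–0.860% of all counts in any culture.

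**Figure D3:**
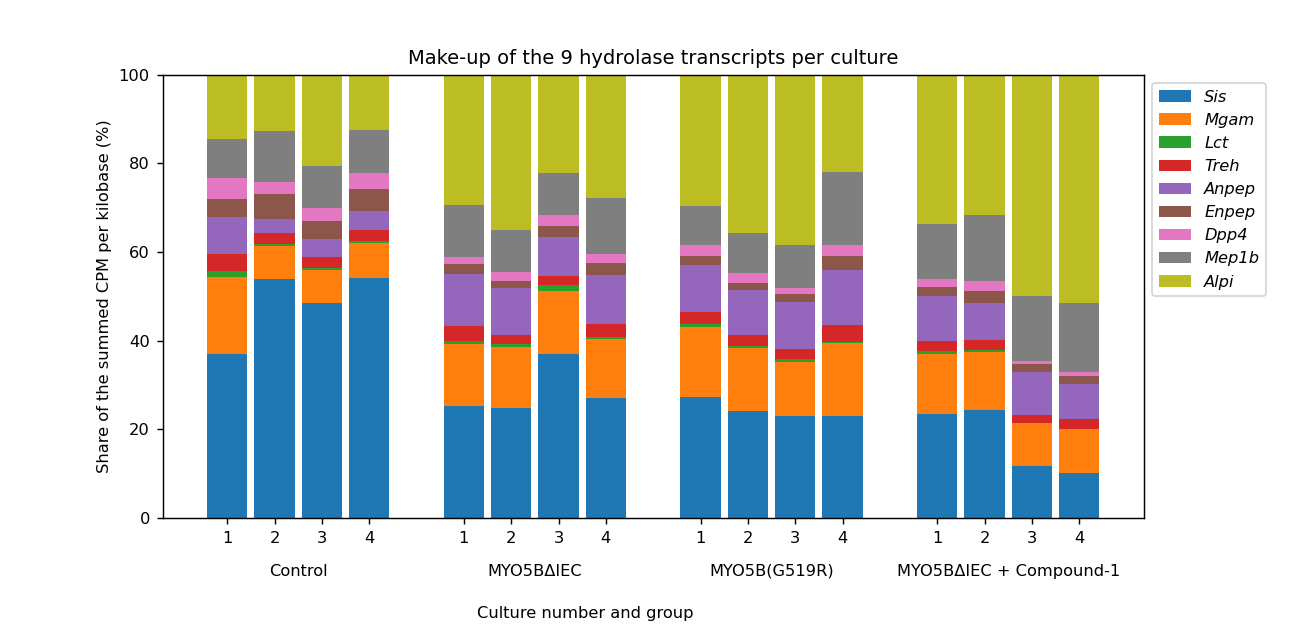
Share of each gene in the summed CPM per kilobase of the 9 hydrolase genes (y axis, percent) in each of the 16 cultures, grouped on the x axis. The Sis segment is 37.1–54.2% in control and 10.1–24.4% with Compound-1, where the Alpi segment is 31.7–51.6%.

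Ratios within a culture do not depend on library size. The ratio of Lct to Sis, which falls at weaning in the mouse intestine, had a mean log2 value per kilobase of -6.46 ± 1.01 (SD, n = 4) in control. The other means were -5.28 ± 0.52 in MYO5BΔIEC, -5.34 ± 0.48 in MYO5B(G519R) and -7.58 ± 2.25 with Compound-1. By an exact two-sided permutation test, whose smallest possible p here is 0.0286, MYO5BΔIEC exceeded control by 1.19 (p = 0.114) and MYO5B(G519R) by 1.13 (p = 0.114). The difference of Compound-1 from vehicle was -2.30 (exact permutation p = 0.0571), and after Benjamini-Hochberg adjustment over the 5 comparisons those 3 p-values were each 0.19. None passed. Without control culture 1 the differences from control were 1.69 for MYO5BΔIEC and 1.63 for MYO5B(G519R) (exact permutation p = 0.0571 for both). For Compound-1 the difference was -0.61 (exact permutation p = 0.8). With 1 culture left out the smallest possible p is 0.0571, so no such test could pass. With 1 culture left out, Compound-1 against vehicle ran from -3.02 to -1.35 and Compound-1 against control from -1.84 to -0.16, the smaller size in both being without Compound-1 culture 4. Compound-1 against control, at -1.12, and MYO5B(G519R) against MYO5BΔIEC, at -0.06, had exact permutation p = 0.486 and p = 0.8.

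A further 3 ratios were chosen after the values were seen and are given without a test. Anpep to Enpep, per kilobase, was 0.579–2.01 in control, against 3.60–7.03 in MYO5BΔIEC, 3.95–6.14 in MYO5B(G519R) and 3.03–5.34 with Compound-1, so that no culture of the last 3 groups overlapped control. Alpi to Sis was 0.232–0.425 in control and 0.602–1.41, 0.955–1.68 and 1.30–5.11 in the same groups. Mgam to Sis was 0.139–0.467 in control and 0.386–0.554, 0.536–0.711 and 0.536–0.984. In Mgam to Sis only MYO5BΔIEC overlapped control, and control culture 1 was the highest control.

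**Figure D4:**
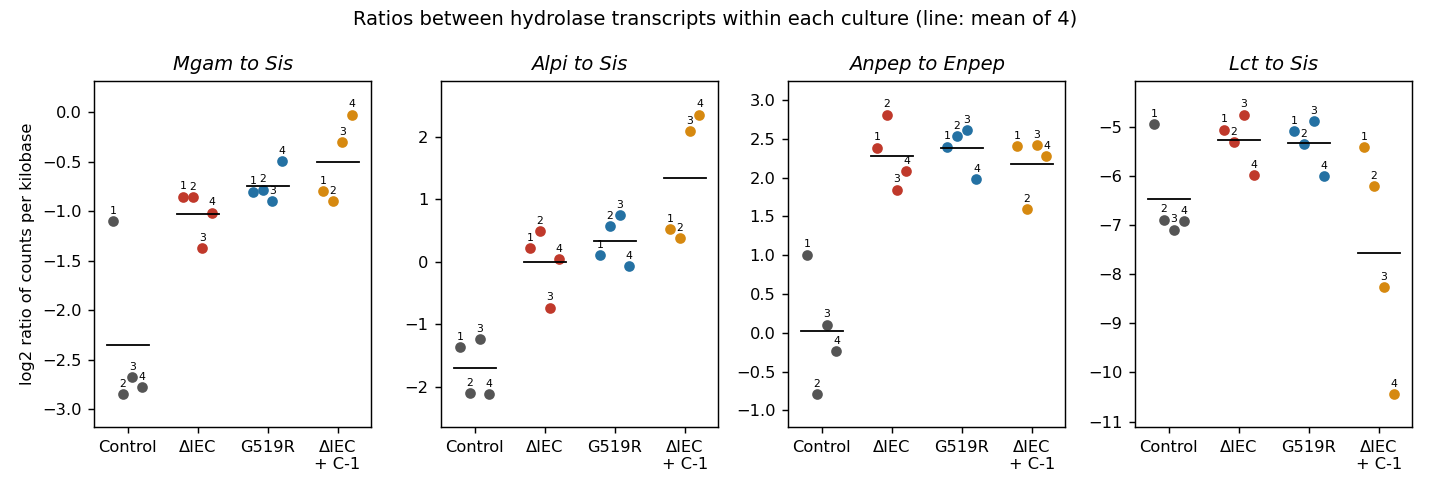
Log2 ratio of counts per kilobase between pairs of hydrolase genes in each culture (1 numbered point per culture, line at the mean of 4). In Anpep to Enpep the 4 controls lie between -0.79 and 1.01 and the other 12 cultures between 1.60 and 2.81, while in Lct to Sis the Compound-1 cultures run from -10.44 to -5.41.

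Structural genes of the microvillus gave a reference for the hydrolases. Of 12 brush border core genes, 9 were higher and 0 lower in MYO5BΔIEC and likewise 9 and 0 in MYO5B(G519R). The shares over all genes were 13.5% higher and 13.8% lower in MYO5BΔIEC, and 13.1% and 13.7% in MYO5B(G519R). The medians of the 12 core genes on the log2 scale were 0.86 and 0.64. Vil1, the actin bundler villin, was at 281–449 CPM in control, 620–922 CPM in MYO5BΔIEC and 640–879 CPM in MYO5B(G519R). It rose by 1.08 ± 0.20 (edgeR adjusted p = 0.0038) and 0.90 ± 0.18 (edgeR adjusted p = 0.00622). Relative to the mean log2 CPM of the 12 core genes, a comparison chosen after the values were seen, Enpep differed from control by -1.52, -1.76 and -1.96 in MYO5BΔIEC, MYO5B(G519R) and the Compound-1 group, and Dpp4 by -1.20, -1.33 and -2.23, with no overlap in any of them. Sis, at -1.59 and -2.32, and Treh, at -0.65 and -1.08, were lower without overlap in MYO5B(G519R) and the Compound-1 group. On this scale 54% of 13545 genes were lower without overlap in MYO5BΔIEC, 45.4% in MYO5B(G519R) and 58.4% in the Compound-1 group, the core genes themselves being higher, so that lying lower on it is no result about the hydrolases. Anpep was higher without overlap by 0.74 in MYO5BΔIEC and 0.60 in MYO5B(G519R), where 1.48% and 2.23% of genes were, and at 0.20 in the Compound-1 group it overlapped control (1.99% of genes were higher). Mgam, at 0.13, 0.01 and -0.48, overlapped control in all 3.

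Of 20 other brush border hydrolase genes, 19 were tested. In MYO5BΔIEC 2 were higher and 0 lower: Cpm, a carboxypeptidase, at 1.40 ± 0.34 (edgeR adjusted p = 0.0129), and Tmprss15, the enteropeptidase that activates trypsinogen, at 2.26 ± 0.65 (edgeR adjusted p = 0.0254). Tmprss15 was low in every group, at 0.0627–1.16 CPM in control and up to 4.92 CPM in MYO5BΔIEC, without overlap. In MYO5B(G519R) 0 were higher and 2 lower: Aoc1, a diamine oxidase, at -0.73 ± 0.17 (edgeR adjusted p = 0.0115), and Mme, the peptidase neprilysin, at -1.40 ± 0.36 (edgeR adjusted p = 0.0188). With Compound-1 against control 1 was higher and 5 were lower, and against vehicle 0 passed. Over all genes tested, 13.5% were higher and 13.8% lower in MYO5BΔIEC, and 13.1% and 13.7% in MYO5B(G519R). With Compound-1 against control these shares were 15.7% and 13.7%. The median log2 fold change of the list was 0.15 in MYO5BΔIEC, -0.28 in MYO5B(G519R), -0.21 with Compound-1 against control and -0.54 against vehicle.

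Of 14 transcription factor genes known to act on enterocyte hydrolase genes, 6 were higher and 0 lower in MYO5BΔIEC, and 7 were higher and 1 lower in MYO5B(G519R). Beside these, 13.5% of all genes were higher and 13.8% lower in MYO5BΔIEC, and 13.1% and 13.7% in MYO5B(G519R). Gata5 rose by 0.77 ± 0.15 and 0.81 ± 0.17 (edgeR adjusted p = 0.0045 and 0.00772), and Klf4, a factor of late enterocyte and goblet differentiation, by 1.06 ± 0.20 and 0.84 ± 0.21 (edgeR adjusted p = 0.00477 and 0.0157). Gata4 rose in MYO5B(G519R) by 0.46 ± 0.12 (edgeR adjusted p = 0.0192) and Maf in MYO5BΔIEC by 1.14 ± 0.32 (edgeR adjusted p = 0.0241). Hnf4g, at -1.06 ± 0.26 in MYO5B(G519R) (edgeR adjusted p = 0.0143), was the 1 that fell, and it was at -0.49 ± 0.27 in MYO5BΔIEC (adjusted p = 0.204). The other HNF4 gene of the list, Hnf4a, rose in MYO5B(G519R) by 0.39 ± 0.11 (edgeR adjusted p = 0.0268), to a mean of 845 CPM, against 97.8 CPM for Hnf4g there. In MYO5BΔIEC Hnf4a was at 0.34 ± 0.14 (edgeR adjusted p = 0.101).

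Some markers of differentiation state passed the test and others did not. The counts below stand beside 13.5% of all genes higher and 13.8% lower in MYO5BΔIEC, and 13.1% and 13.7% in MYO5B(G519R). With Compound-1 against control the shares were 15.7% and 13.7%. Of 6 proliferation genes, 3 were lower in MYO5BΔIEC and 2 in MYO5B(G519R), and the summed list was at 1579–1903 CPM in control, 1082–1420 CPM in MYO5BΔIEC, 1330–1668 CPM in MYO5B(G519R) and 756–1440 CPM with Compound-1. Of 7 villus tip genes 4 were higher in both models, with sums of 491–1306, 1316–2915, 1156–1758 and 974–2067 CPM. Klf4 is in this list too. Of 7 villus bottom genes, 1 was lower in MYO5BΔIEC, and 4 were lower and 1 higher in MYO5B(G519R), with sums of 2216–3984, 1500–2572, 1528–2043 and 1653–2470 CPM. None of the 6 jejunal enterocyte genes passed in either model, and 3 were lower with Compound-1 against control, with sums of 3333–5970, 2747–4346 and 3167–3732 CPM in the groups other than control. Of 3 suckling enterocyte genes tested, 2 were higher in MYO5BΔIEC, and 1 in MYO5B(G519R) and with Compound-1 against control. Ass1 was higher in both models (edgeR adjusted p = 0.00341 and 0.00465) and Fcgrt in neither. The adult enterocyte gene Arg2 passed in neither model and was lower with Compound-1 against control. The mitochondrially encoded share of counts was 6.41–10.4% in control and 3.79–6.63% in the other groups. Of genes marking other epithelial cells, 1 of 5 stem cell genes and 2 of 6 Paneth genes were lower in both models, and the summed stem cell list was at 2246–6286 CPM in control, 821–1973 CPM in MYO5BΔIEC, 1164–2499 CPM in MYO5B(G519R) and 511–1708 CPM with Compound-1. The stem cell gene that fell, Olfm4, was the largest part of the sum in control, with means of 3743 CPM there, 776 CPM in MYO5BΔIEC and 1212 CPM in MYO5B(G519R). Lgr5, Smoc2 and Axin2 had estimates above 0 in both models and Ascl2 below 0, none of them called. The median log2 fold change of the stem cell list was 0.02 in MYO5BΔIEC and 0.30 in MYO5B(G519R). Of 7 goblet genes 2 were higher and 1 lower in MYO5BΔIEC, and 2 were higher and 2 lower in MYO5B(G519R). Of 7 enteroendocrine genes 2 were higher in MYO5BΔIEC, Chga at 1.24 and Chgb at 0.70 (edgeR adjusted p = 0.0116 and 0.0485), and 1 was higher and 1 lower in MYO5B(G519R). Of 5 tuft cell genes tested, Pou2f3 was lower in both models. The part of these measures in the hydrolase values was not tested.

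Across the 16 libraries, which share 4 groups and their depth, the correlations differed between pairs of hydrolases, and they changed when group means were removed. Sis was most like Dpp4 and Enpep among the other 8, with Pearson correlations of log2 CPM of 0.90 and 0.85, and 0.81 and 0.80 after group means were removed. Mgam was most like Anpep, at 0.89 and 0.79 within groups, and Anpep was close to Alpi at 0.78. Anpep and Enpep were at -0.42, and 0.34 within groups. Sis and Mgam were at 0.16, and 0.66 within groups. Enpep and Mep1b were at 0.28, and 0.87 within groups, the highest of any pair there. The pairs thus do not mark separate patterns within groups.

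Among 13536 other genes, the most alike in log2 CPM over the 16 libraries were Prrx1 (0.98), Mme (0.97) and Rdh16f2 (0.96) for Sis, Oat (0.98), Fbp1 (0.97) and Hadh (0.95) for Dpp4, and Abcg2 (0.96), Slc6a20a (0.95) and Cyp3a25 (0.95) for Enpep. For Mgam they were Npc1l1, C530008M17Rik and Nr1d1 (each 0.94), and for Anpep Ucp2 (0.97) and Creb3l2 (0.95). Mep1b was most like Gk (0.97), Mttp (0.95) and Apob (0.95), the last pair being known for chylomicron assembly. Alpi was most like Tpbgl, Kalrn and Dgkq (0.94, 0.94 and 0.93), Lct like Acsm5, Caprin2 and Bst1 (0.91, 0.91 and 0.90), and Treh like Ggt1, Phlpp2 and Slc7a8 (0.84, 0.82 and 0.81), the lowest values of the 9. Prrx1 was at a mean of 8.04 CPM and Rdh16f2 at 1.12 CPM.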

How the data were processed

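Poly-A RNA of 16 enteroid cultures was sequenced by a service company. Per the methods and the submitters' processing notes, reads were aligned to GRCm38 with STAR 2.5, alignments were parsed with TopHat, and HTSeq 0.6.1 counted reads per gene. The tables the authors deposited hold these raw counts, FPKM values computed from the counts and gene lengths, and the gene length in bases. The authors tested genes with DESeq2. The counting options for strand and for reads that fit several genes are not given in the sources used here.

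Counts were scaled to CPM with TMM library sizes over 16 libraries, and levels were compared between genes only per kilobase. Each of 5 comparisons was fitted on its 8 libraries with edgeR 4.0.16 (limma 3.58.1, R 4.3.3, quasi-likelihood F test, genes kept at 10 or more counts in 2 or more libraries, Benjamini-Hochberg over all genes tested, threshold 0.05), and checked on simulated data. SE is the estimate divided by the root of F. The ratio of Lct to Sis was tested by exact permutation. Alternatives were DESeq2 1.42.0, its size factors, mitochondrially encoded genes left out of library sizes, omission of the filter, 1 fit over the 4 groups, a block for the replicate number, removal of the gene length trend (lowess, span 0.3), each culture left out and, for the ratio, FPKM.

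All 9 hydrolases are described. Of the other hydrolase and transcription factor lists, genes called against control in either model are named, at most 6 per list by smallest adjusted p, plus Vil1 and, beside Hnf4g, Hnf4a. The 3 genes most alike are named for each, among those with a mean of at least 1 CPM. A few genes that these rules would name are not reported here. The genes and lists were chosen with earlier results of these data known. Markers of regions and cell types, Myo5b, Phldb1, Akp3 and Mgam2-ps were named as checks. Same-numbered cultures of different groups did not deviate together in all pairs of any comparison, so numbers were not treated as pairs. No libraries were identical. Protein sequences were not used here, and the Mep1b promoter was not analysed here.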

Additional observations from a re-analysis of the deposited data

Results flagged for a closer look

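In 40 groups of 4 cultures (each of the 9 genes in CPM, and the ratio of Lct to Sis), the gap between the most extreme culture and its nearest neighbour was compared with the range of the group, and 3 gaps exceeded Dixon's 95% critical value. Chance gives about 1 in 20. Mgam in Compound-1 culture 1 was at 1293 CPM, against 801–846 CPM in the other 3 cultures, and Lct and Sis were also highest in that culture within the group. Dpp4 in MYO5B(G519R) culture 4 was at 89.0 CPM, against 121.5–122.1 CPM in the others, whose own values were nearly equal. The log2 ratio of Lct to Sis in control culture 1 was -4.95, against -7.09 to -6.89 in the other controls, with Sis at its lowest and Lct at its highest in that culture among the controls.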

How the results depend on the processing

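In MYO5BΔIEC against control, Mgam, Anpep and Alpi passed under all alternatives run. In MYO5B(G519R) against control, Anpep and Enpep passed under all alternatives, and leaving out 1 culture gave 3 to 5 of the 9 genes called. For Compound-1 against control, leaving out 1 culture gave 3 to 5. Lct passed in MYO5BΔIEC in 2 of 7 alternatives other than leaving out a culture, and Alpi in MYO5B(G519R) in 4 of 7: DESeq2, 1 fit over the 4 groups, the block and the length trend removed. Of the 9 genes, the number called was 0 under all alternatives for Compound-1 against vehicle and for MYO5B(G519R) against MYO5BΔIEC. Over all genes, edgeR called 4910 in MYO5BΔIEC, 4778 in MYO5B(G519R) and 5275 with Compound-1 against control, and 2963 to 7474, 2880 to 8146 and 2957 to 7459 with 1 culture left out. The highest number of each range was without control culture 1. Between Compound-1 and vehicle edgeR called 0, 12 without the filter and 91 by DESeq2, and between the models 1, 2 without the filter, 4 by DESeq2 and 0 to 2 with 1 culture left out.

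In fits with a replicate block, the calls were 3 in MYO5BΔIEC, 5 in MYO5B(G519R), where Sis was lost (-1.01, adjusted p = 0.073) and Alpi gained (adjusted p = 0.0233), and 4 with Compound-1 against control, where Sis was lost (-1.50, adjusted p = 0.0559). Between the models, 7 of the 9 genes had an unadjusted p below 0.05 with the block, against 1 without it, and none passed after adjustment. Same-numbered cultures correlated at -0.18 to 0.38 in their deviations from group means. The highest values, 0.27 and 0.38, were for cultures 3 and 4 of MYO5B(G519R) and MYO5BΔIEC, whose cultures 1 and 2 were at 0.086 and 0.027. The log2 ratios of Lct to Sis were -5.09, -5.35, -4.89 and -6.01 in MYO5B(G519R) cultures 1 to 4. In MYO5BΔIEC cultures 1 to 4 they were -5.06, -5.31, -4.75 and -5.98. What same-numbered cultures share beyond the number is not given in the labels and was not tested.

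Directions that turned belonged to estimates near 0. In MYO5B(G519R) against control, Mep1b was 0.027 with DESeq2 and with its size factors, 0.00031 without the filter, 0.090 with the block and 0.12 with the length trend removed, and leaving out 1 culture gave -0.21 to 0.29. Treh there was 0.068 with the length trend removed and -0.14 to 0.053 with 1 culture left out, and Lct was -0.085 (without MYO5B(G519R) culture 3) to 0.55. With 1 culture left out, Mep1b between Compound-1 and vehicle ran from -0.0056 to 0.22, Alpi between the models from -0.50 to 0.092, and the ratio of Lct to Sis between the models from -0.29 to 0.17. FPKM gave the same ratio differences, which is fixed in advance because it is computed from the same counts and gene lengths. The cause of the turned directions was not tested.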
